A study of Homo sapiens with 6 samples.

Results

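The genes described here are 10 markers of the epithelial and mesenchymal state of a cell, measured by microarray in A2780, an established line of human ovarian cancer, on 6 arrays. They were taken by name, as every probe set that the platform annotation assigns to CDH1, EPCAM and CLDN7 (epithelial) or to CDH2, VIM, ZEB1, ZEB2, SNAI1, SNAI2 and TWIST1 (mesenchymal). All 10 genes were found, on 12 of the 33252 probe sets, and 1 probe set per gene entered a table of 18418 genes. Cells were grown with 10% fetal bovine serum and infected with lentivirus. For the target BMI1 there was a control (BMI1 Ctrl) and a pair of hairpins (BMI1 shRNA1 and BMI1 shRNA2), and for the target FAL-1 likewise a control (FAL-1 Ctrl) and FAL-1 shRNA1 and FAL-1 shRNA2. A short hairpin RNA (shRNA) lowers the transcript it matches. BMI1 belongs to a Polycomb complex that represses transcription, whereas FAL-1 is a long non-coding RNA. The virus was removed after 24 hours and RNA was taken at 96 hours. All 6 arrays are of the same cell line and all were infected, uninfected cells were not analysed here, and the labels do not say what the control viruses carried. Each condition has 1 array, so a target has 2 hairpin arrays and 1 control array of its own.

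Epithelial cells hold to each other through E-cadherin (CDH1), tight junction claudins such as CLDN7 and the surface adhesion protein EPCAM. Mesenchymal cells use N-cadherin (CDH2) and the intermediate filament vimentin (VIM). The zinc finger factors ZEB1, ZEB2, SNAI1 and SNAI2 bind E-box motifs and repress CDH1 and other epithelial genes, and TWIST1 is a basic helix-loop-helix factor of the same programme. TWIST1 and BMI1 have been described as acting together to repress CDH1 in other cancer cells.

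Values are log2 probe set levels. The 2 measures used below are the level on an array and the change, which is the level with a hairpin minus the level in the control array of the same target. A value after ± is the SD of the 2 hairpin changes of a target. Both changes subtract the same control array, so this SD holds no error of that array. It is thus not the precision of a mean change. Probe sets differ in how well they bind their target, so levels of different genes were not ranked. As a guide to the dim end of the array, the 95th percentile of 341 olfactory receptor genes was 6.31, and a gene whose mean was at or under this value is called dim. Because these are bulk RNA samples, fewer cells with a transcript and less RNA per cell cannot be told apart.

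Across the whole series, BMI1 read 26.8% and 64.0% of its control with BMI1 hairpins 1 and 2. With FAL-1 hairpins 1 and 2 it read 99.9% and 79.8% of the FAL-1 control. For BMI1 alone, probe sets annotated to more than 1 symbol were allowed, so these readings may not be of BMI1 alone. The knockdown of FAL-1 was not checked here. Arrays of the same target correlated across probe sets at 0.985 to 0.995, and arrays of different targets at 0.973 to 0.987, so the ranges overlap. FAL-1 hairpin 2 stood apart: 11.2% of all genes differed 1.5-fold or more from the control, compared with 2.51% for FAL-1 hairpin 1, 5.01% for BMI1 hairpin 1 and 5.82% for BMI1 hairpin 2. Of the markers fixed for the label of a carcinoma line, KRT8 and KRT18, keratins of simple epithelia, read 8.45 to 11.07 on the 6 arrays, while KRT7, PAX8 and EPCAM read 6.01 to 6.98 and KRT19 6.21 to 8.57. The stromal markers DCN, LUM and PDGFRA read 8.87 to 11.33, none of the 3 dim. Among markers of other cell types, 2 of 3 measured leukocyte genes, 2 of 3 endothelial genes and 1 of 2 mesothelial genes were dim, and the leukocyte marker PTPRC read at most 5.10. Of all 18418 genes, 5015 were dim.

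In every condition most of the mesenchymal genes gave a clear signal and the epithelial genes lay near the dim end. CDH2, VIM, ZEB1, SNAI2 and TWIST1 read between 9.15 and 12.82 on all 6 arrays, whereas CDH1 read 5.80 to 6.09 and lay under that limit on each of them. EPCAM was over the limit on 4 arrays and CLDN7 also on 4. SNAI1, the one mesenchymal gene near the limit, was over it on 3 arrays, and ZEB2 was over it on all 6.

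**Figure D1:**
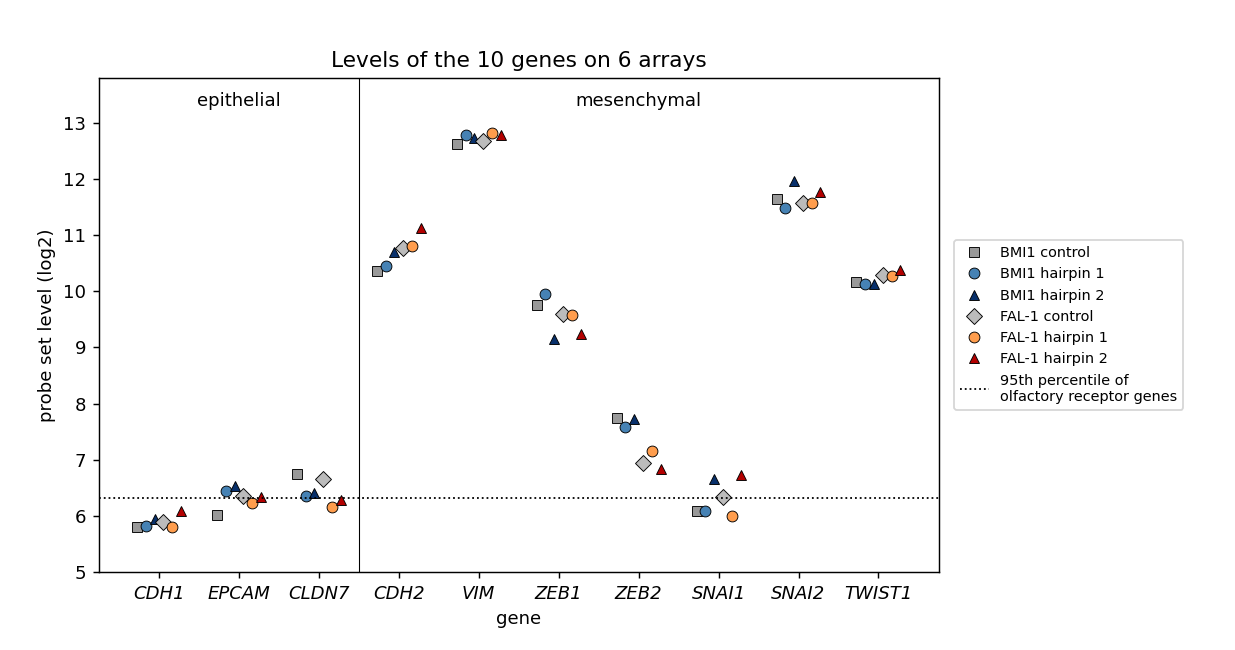
Level of each gene on the 6 arrays, as log2 probe set value. Each point is 1 array, and the dotted line at 6.31 marks the 95th percentile of olfactory receptor genes. CDH1 lies under the line on all arrays, EPCAM, CLDN7 and SNAI1 lie around it, and the other 6 genes lie above it.

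No gene passed limma's test for either knockdown (0.0% of 18418 genes at an adjusted p under 0.05, for the BMI1 comparison, the FAL-1 comparison and the difference between them). At an unadjusted p under 0.05 there were 477 genes for BMI1 (2.59%), 563 for FAL-1 (3.06%) and 148 for the difference (0.804%). The members' adjusted p was 0.9998 or more for BMI1 and 0.9991 or more for FAL-1. BMI1 itself, the target, did not pass in the BMI1 comparison (unadjusted p = 0.076, adjusted p = 0.9998, limma). A gene that was not called is therefore not shown to be unchanged. The spread in this test comes only from the 2 hairpins of each target, with 2 residual degrees of freedom, and separate cultures are not described. The p-values therefore measure only the spread between these samples, which may be technical. It also holds any difference between the 2 hairpins of a target, which left BMI1 at 26.8% and 64.0% of its control. Standard errors of the 10 mean changes ran from 0.13 to 0.40. On the 1 probe set that represents each gene, 1 of the 40 single-hairpin changes reached 1.5-fold, that of ZEB1 with BMI1 hairpin 2. On these probe sets no member was at 1.5-fold with both hairpins of a target, where 1.44% of all genes were for BMI1 and 1.21% for FAL-1. A second, dimmer EPCAM probe set, described with that gene, was past 1.5-fold with both BMI1 hairpins and with FAL-1 hairpin 1.

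**Figure D2:**
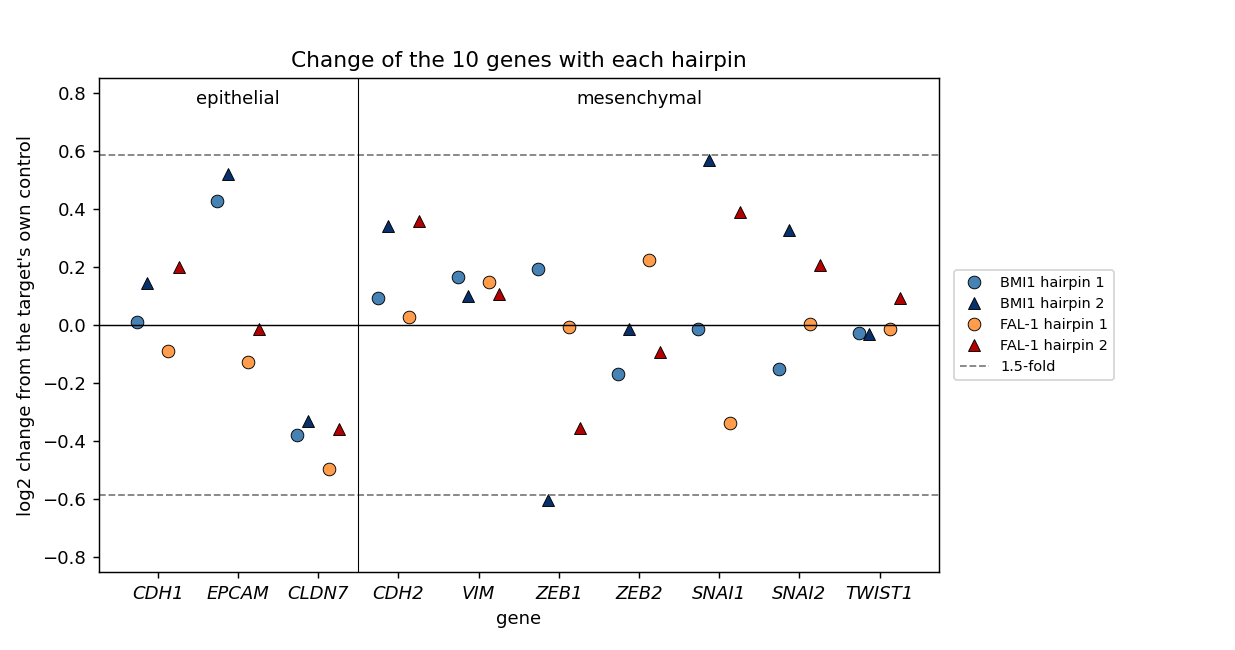
Log2 change of each gene with each hairpin from the control array of the same target; each point is 1 array, and dashed lines mark 1.5-fold. CLDN7 is below its control with all 4 hairpins, EPCAM is above it only with the BMI1 hairpins, and the SNAI1 and ZEB1 points of hairpins 1 and 2 lie apart.

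Among the epithelial genes, CLDN7 was below its control with every hairpin. CLDN7 encodes claudin-7, a tight junction strand protein. Its level was 6.74 in the BMI1 control, 6.36 with BMI1 hairpin 1 and 6.41 with hairpin 2, and 6.65 in the FAL-1 control, 6.15 with FAL-1 hairpin 1 and 6.29 with hairpin 2. All 4 hairpin arrays were below both control arrays, so the groups did not overlap. Such a pattern was seen in 8.04% of all genes, so a share of 1 in 10 members is near the background. The mean change was -0.35 ± 0.03 (SD, n = 2 hairpins) for BMI1, or 77.0% and 79.5% of control, and -0.43 ± 0.10 for FAL-1, or 70.9% and 77.9%. In limma's test over all genes the unadjusted p was 0.057 and 0.032, and neither passed after adjustment. The 95% intervals of the fit ran from -0.72 to 0.02 for BMI1 and from -0.80 to -0.06 for FAL-1. Levels with the FAL-1 hairpins were under the dim limit, so these changes sit at the edge of what the array separates from background.

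The upstream sequences of CLDN7 and ZEB1 are shown because CLDN7 was the member below its control with all 4 hairpins. ZEB1 was the repressor with the largest change with a single hairpin, though not the largest mean change. RefSeq promoters (GRCh38.p14) were matched for 5 of the 10 genes: CLDN7, CDH2, VIM, ZEB1 and ZEB2. The 250 bases before the start were searched on both strands for CAGGTG, the E-box form that Snail and ZEB factors prefer, and for the general E-box CANNTG, which includes it. Capitals mark every CANNTG match, and positions count back from the start of the gene. CLDN7 lies on the minus strand at chr17:7263214-7263463 and ZEB1 on the plus strand at chr10:31318167-31318416, both printed 5′ to 3′ along the gene.
CLDN7: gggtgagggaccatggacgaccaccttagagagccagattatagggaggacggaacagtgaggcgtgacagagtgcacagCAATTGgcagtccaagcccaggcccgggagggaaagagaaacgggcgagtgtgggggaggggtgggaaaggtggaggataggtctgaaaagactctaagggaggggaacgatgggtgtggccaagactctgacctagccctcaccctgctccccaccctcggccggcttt
ZEB1: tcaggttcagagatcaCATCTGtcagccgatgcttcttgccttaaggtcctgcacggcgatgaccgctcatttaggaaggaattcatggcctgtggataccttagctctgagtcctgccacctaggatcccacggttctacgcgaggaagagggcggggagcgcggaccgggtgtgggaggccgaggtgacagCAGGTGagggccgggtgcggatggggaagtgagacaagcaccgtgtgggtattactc

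ZEB1 held the 1 CAGGTG match among the 5 promoters, from position -57 to -52, and 17.5% of all 35116 promoters of this length held at least 1. The general CANNTG was found in 3 of the 5, ZEB1, ZEB2 and CLDN7, and in 61.8% of all promoters. In CLDN7 its match lay at -170 to -165. A match describes the letters of this window and is not a binding site.

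EPCAM differed between the knockdowns in its values. EPCAM is a surface glycoprotein of epithelia that is used to mark carcinoma cells. Its brighter probe set read 6.01 in the BMI1 control, 6.44 with BMI1 hairpin 1 and 6.53 with hairpin 2, and 6.36 in the FAL-1 control, 6.23 with FAL-1 hairpin 1 and 6.34 with hairpin 2. The BMI1 control was the lowest of the 6 arrays, and the other 5 spanned 6.23 to 6.53. The mean change was 0.47 ± 0.07 (SD, n = 2 hairpins) for BMI1 and -0.07 ± 0.08 for FAL-1. In limma the unadjusted p was 0.023 for BMI1, 0.632 for FAL-1 and 0.045 for the difference between them, and none passed after adjustment over all genes. Against the FAL-1 control, the BMI1 hairpins had a mean EPCAM change of 0.13. The BMI1 control and FAL-1 hairpin 1 lay under the dim limit of 6.31, so the BMI1 change was measured against a value not above that limit.

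A second EPCAM probe set, which the annotation gives the same transcripts, was dimmer and spread more. Whether it reads another locus is not known here. It read 5.33 in the BMI1 control, 6.42 and 6.15 with BMI1 hairpins 1 and 2, 6.01 in the FAL-1 control, and 5.35 and 6.22 with FAL-1 hairpins 1 and 2. Its BMI1 changes were 1.10 and 0.82, larger than on the first probe set and of the same sign. Its FAL-1 changes were -0.66 and 0.21, so the probe sets disagreed in sign for FAL-1 hairpin 2. Its BMI1 control was also under the dim limit. With the mean of both probe sets, the EPCAM change was 0.72 for BMI1 and -0.15 for FAL-1.

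CDH1, the E-cadherin gene, stayed in the dim range in all conditions. It read 5.80, 5.81 and 5.95 in the BMI1 control and with BMI1 hairpins 1 and 2, and 5.89, 5.80 and 6.09 in the FAL-1 control and with FAL-1 hairpins 1 and 2. Its 6 values covered 0.29, and its mean changes were 0.08 ± 0.10 (SD, n = 2 hairpins) for BMI1 and 0.06 ± 0.21 for FAL-1. The 95% intervals of the fit, -0.41 to 0.56 and -0.43 to 0.54, allow no statement on the direction, and a change of a transcript under the array's background would not be visible. The median change of the 3 epithelial genes was 0.08 for BMI1 and -0.07 for FAL-1, beside 0.01 and 0.03 over all genes.

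Both mesenchymal structure genes were above their own control with all 4 hairpins, as were 17.0% of all genes. CLDN7 was the one member below it with all 4, as were 14.1%. For BMI1 alone, 4 of 10 members were above the control with both hairpins and 3 below it, beside 32.9% and 30.7% of all genes. For FAL-1 these numbers were 3 and 3, beside 37.2% and 27.7%. Small values set some of these counts: CDH1 with BMI1 lost its common sign after quantile normalization, and TWIST1 with BMI1 and SNAI2 with FAL-1 lost theirs after both quantile normalization and cyclic loess.

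CDH2 encodes N-cadherin, the classical cadherin of mesenchymal and neural cells. It read 10.36 in the BMI1 control, 10.46 and 10.70 with BMI1 hairpins 1 and 2, 10.77 in the FAL-1 control, and 10.80 and 11.13 with FAL-1 hairpins 1 and 2. Hairpin 2 gave the highest array of each target, and every FAL-1 array, the control included, was above every BMI1 array. The mean change was 0.22 ± 0.17 (SD, n = 2 hairpins) for BMI1 and 0.19 ± 0.23 for FAL-1, without passing (unadjusted p = 0.358 and 0.407, limma). Against the FAL-1 control the BMI1 value turned to -0.19.

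VIM encodes vimentin, the main intermediate filament of mesenchymal cells. It read 12.62, 12.79 and 12.73 in the BMI1 control and with BMI1 hairpins 1 and 2, and 12.67, 12.82 and 12.78 in the FAL-1 control and with FAL-1 hairpins 1 and 2. The 4 hairpin arrays were all above both controls, a pattern found in 9.02% of all genes. The distance was small: mean changes were 0.13 ± 0.05 (SD, n = 2 hairpins) and 0.13 ± 0.03, or 1.10-fold and 1.09-fold, and limma's unadjusted p was 0.353 and 0.378.

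Of the E-box repressors, ZEB1 had the lowest single change. It read 9.75 in the BMI1 control, 9.95 with BMI1 hairpin 1 and 9.15 with hairpin 2, and 9.59 in the FAL-1 control, 9.58 with FAL-1 hairpin 1 and 9.23 with hairpin 2. The arrays of hairpin 2 were the lowest of the 6 for both targets, at changes of -0.60 and -0.35, while hairpin 1 gave 0.19 and -0.01. The mean changes of -0.21 ± 0.56 (SD, n = 2 hairpins) and -0.18 ± 0.25 were smaller than or close to the spread between hairpins. BMI1 hairpin 1, which left the lower BMI1 level, was thus the one with ZEB1 above its control.

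ZEB2, the close relative of ZEB1, differed more between the BMI1 and FAL-1 sets than between hairpins and their own control. Its brighter probe set read 7.74 in the BMI1 control, 7.58 and 7.73 with BMI1 hairpins 1 and 2, 6.94 in the FAL-1 control, and 7.16 and 6.84 with FAL-1 hairpins 1 and 2. All FAL-1 arrays were below all BMI1 arrays, and the controls alone differed by -0.81, FAL-1 control minus BMI1 control. The mean changes of the brighter probe set against the own control were -0.09 ± 0.11 (SD, n = 2 hairpins) and 0.07 ± 0.22. A dimmer second probe set showed the same split, at 5.41 to 5.58 on the BMI1 arrays and 4.84 to 5.13 on the FAL-1 arrays. Its changes were -0.17 and -0.12 with BMI1 hairpins 1 and 2, and 0.29 and 0.22 with FAL-1 hairpins 1 and 2. The probe sets thus disagreed in sign for FAL-1 hairpin 2. With the mean of both probe sets, the ZEB2 change was -0.12 for BMI1 and 0.16 for FAL-1. Among all genes, 6.35% had every FAL-1 array below every BMI1 array and 12.4% had the opposite order, which CDH2 and TWIST1 also showed. The labels name no batch, so target, control and any handling shared by a set cannot be told apart.

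SNAI1, which encodes Snail, read 6.09 in the BMI1 control, 6.08 with BMI1 hairpin 1 and 6.66 with hairpin 2. It read 6.34 in the FAL-1 control, 6.01 with FAL-1 hairpin 1 and 6.73 with hairpin 2. For both targets hairpin 2 was above the control, by 0.57 and 0.39, and hairpin 1 below it, by -0.01 and -0.34. The gene thus had no common direction within either knockdown, and its mean changes were 0.28 ± 0.41 (SD, n = 2 hairpins) and 0.03 ± 0.52.

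SNAI2, which encodes Slug, is a Snail family member with a clear signal on all 6 arrays. It read 11.64, 11.49 and 11.97 in the BMI1 control and with BMI1 hairpins 1 and 2, and 11.57, 11.57 and 11.77 in the FAL-1 control and with FAL-1 hairpins 1 and 2. Again the arrays of hairpin 2 were the highest of each target, with changes of 0.33 and 0.21. The mean changes were 0.09 ± 0.34 (SD, n = 2 hairpins) and 0.10 ± 0.14.

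TWIST1 had a narrow range, 0.25 over the 6 arrays, as did VIM at 0.20. It read 10.17, 10.14 and 10.14 in the BMI1 control and with BMI1 hairpins 1 and 2, and 10.29, 10.28 and 10.38 in the FAL-1 control and with FAL-1 hairpins 1 and 2. The mean changes were -0.03 and 0.04, with 95% intervals of -0.38 to 0.33 and -0.31 to 0.39. The median change of the 7 mesenchymal genes was 0.09 for BMI1 and 0.07 for FAL-1. It thus had the same sign as the epithelial median for BMI1 and the opposite sign for FAL-1, with all 4 medians within 0.10 of no change.

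Part of these values followed the control array. With each target set against the other's control, the mean change of ZEB2 was 0.72 for BMI1 and -0.74 for FAL-1, and that of CDH2 -0.19 and 0.60. EPCAM read 0.13 for BMI1 and 0.28 for FAL-1. ZEB1 read -0.04 and -0.35, SNAI1 0.03 and 0.28, and TWIST1 -0.15 and 0.16. CLDN7 read -0.27 and -0.52, and VIM 0.08 and 0.17, with the same signs as against the own control.

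**Figure D3:**
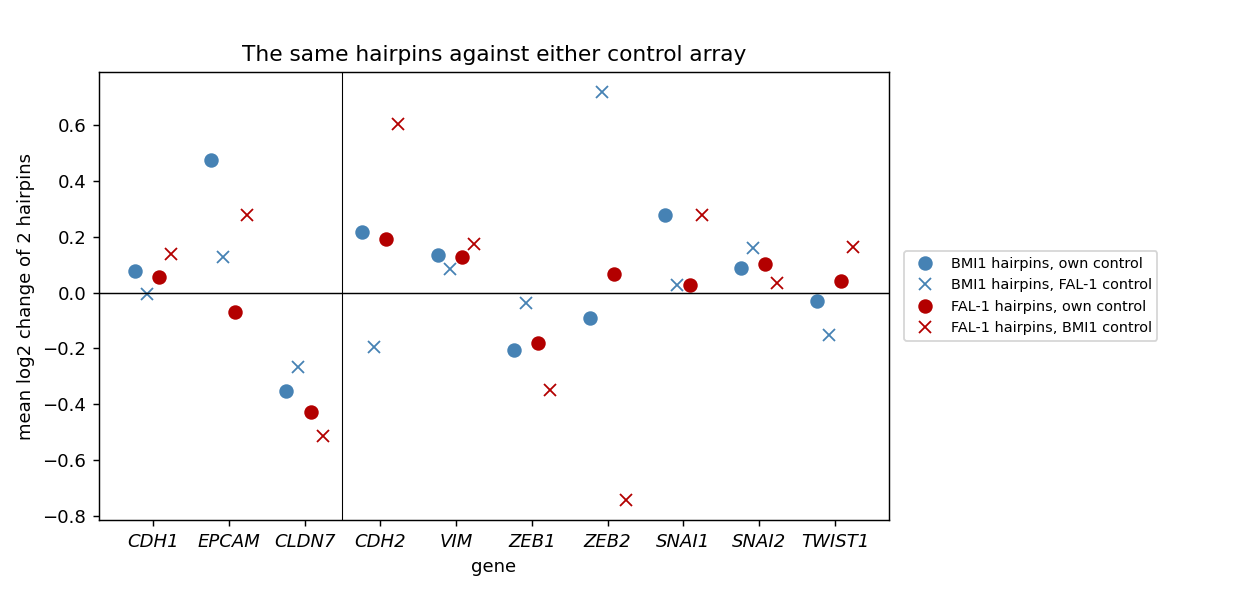
Mean log2 change of the 2 hairpins of each target against its own control (circles) and against the control of the other target (crosses). ZEB2 moves from -0.09 to 0.72 for BMI1 and from 0.07 to -0.74 for FAL-1, while CLDN7 is below 0 and VIM above 0 with either control.

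The comparison of hairpin 2 with hairpin 1 uses no control array, and was looked at after the values above were seen. The difference had the same sign for BMI1 and FAL-1 in 8 of 10 members, where 61.7% of all genes did. SNAI1 was higher with hairpin 2 by 0.58 for BMI1 and 0.73 for FAL-1, SNAI2 by 0.48 and 0.20, and CDH2 by 0.25 and 0.33. For ZEB1 the differences were -0.80 and -0.35. ZEB2, at 0.16 and -0.32, had opposite signs, and TWIST1 differed by -0.0007 and 0.11. These differences have 1 array on each side and were not tested, and the hairpins numbered 2 target different genes. FAL-1 hairpin 2 is also the array that stood apart, and without it the FAL-1 changes are those of hairpin 1, -0.34 in place of 0.03 for SNAI1 and 0.03 in place of 0.19 for CDH2.

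**Figure D4:**
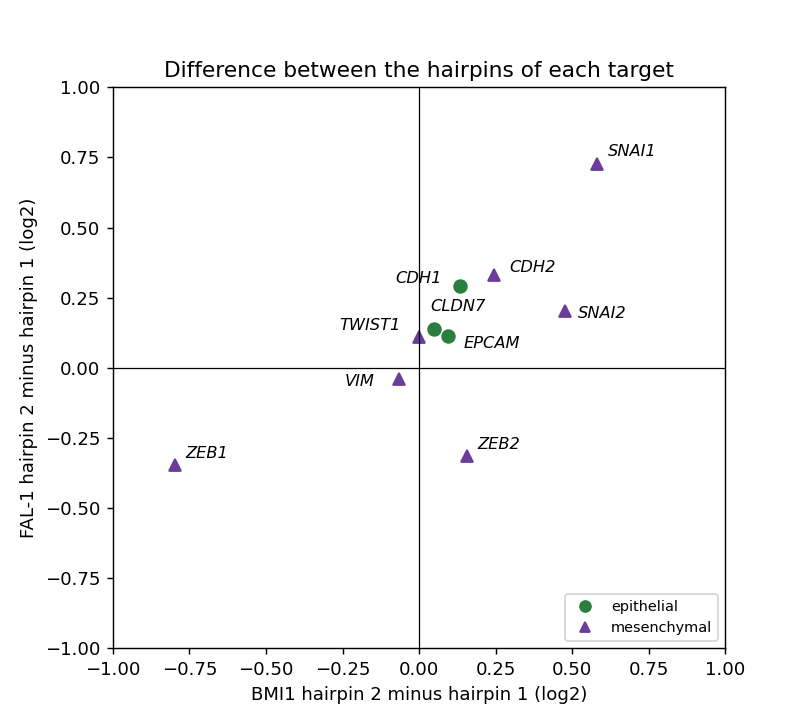
Level with hairpin 2 minus level with hairpin 1, in log2, for the BMI1 arrays (horizontal) and the FAL-1 arrays (vertical); each point is 1 gene. SNAI1, SNAI2 and CDH2 lie to the upper right and ZEB1, at -0.80 and -0.35, to the lower left.

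Other genes of the programme were taken from fixed lists, and no list gene passed limma's test in either knockdown. Of 21 measured tight junction, desmosome and keratin genes, 5 were above the BMI1 control with both hairpins and 5 below, beside 32.9% and 30.7% of all genes. With FAL-1, 8 were above and 1 below, beside 37.2% and 27.7%. CLDN3, another claudin, was above its control with all 4 hairpins, at 0.28 ± 0.08 (SD, n = 2 hairpins) for BMI1 and 0.11 ± 0.15 for FAL-1, and at 0.04 and 0.35 against the other target's control. DSC2, a desmosomal cadherin, read 0.36 and 0.94 with the BMI1 hairpins and 0.01 and 0.92 with the FAL-1 hairpins, but -0.20 on average for BMI1 and 1.32 for FAL-1 against the other control. With FAL-1 hairpin 2, 19 of the 21 were above the control (58.0% of all genes), compared with 9 for FAL-1 hairpin 1 (51.5%). With BMI1 hairpin 2, 14 were above it (54.1%), and with BMI1 hairpin 1, 7 (48.1%).

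In that list the highest changes with FAL-1 hairpin 2 were those of KRT19 and KRT8, keratins named here after their values were seen. KRT8 read 9.28 in the FAL-1 control, 9.04 with hairpin 1 and 11.07 with hairpin 2. KRT19 read 6.72, 6.73 and 8.57 on the same arrays. Their companion KRT18 read 8.79, 8.45 and 9.47. The P-cadherin gene CDH3 was higher with hairpin 2 than hairpin 1 for both targets, by 0.97 and 1.06. CDH1 and CLDN7 did not share this size, with differences of 0.29 and 0.14 for FAL-1.

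Epithelial regulators were mostly near background, with 5 of 8 measured genes dim, beside 5015 of all 18418 genes. The zinc finger factor OVOL2 read 0.17 ± 0.02 (SD, n = 2 hairpins) for BMI1 and 0.08 ± 0.06 for FAL-1, the splicing factor ESRP2 0.14 ± 0.01 and 0.10 ± 0.08, and KLF4, dim here, 0.04 ± 0.06 and 0.13 ± 0.16. Against the FAL-1 control the BMI1 values were 0.0091 for OVOL2, 0.017 for ESRP2 and -0.0085 for KLF4, and against the BMI1 control the FAL-1 values of OVOL2 and ESRP2 were 0.24 and 0.22. These genes were named for a shared sign over all 4 hairpins. Of the 8 measured, 3 were above and 2 below the BMI1 control with both hairpins, beside 32.9% and 30.7% of all genes. For FAL-1, 6 were above and 0 below, beside 37.2% and 27.7%. The list median was -0.02 for BMI1 and 0.06 for FAL-1. Of 8 catenin, nectin and linker genes, 3 were above and 2 below the BMI1 control with both hairpins, and 3 above and 3 below for FAL-1, beside 32.9% and 30.7%, and 37.2% and 27.7%, of all genes. CTNNA1, alpha-catenin, which links cadherins to actin, read 0.17 ± 0.20 and 0.13 ± 0.01, and -0.0061 and 0.30 against the other target's control. NECTIN3 was named by size and had no common direction, at 0.54 and -0.55 with the FAL-1 hairpins.

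Of 17 measured mesenchymal markers, 3 were above and 8 below the BMI1 control with both hairpins, and 11 were above and 4 below for FAL-1. Among all genes these shares were 32.9% and 30.7% for BMI1, and 37.2% and 27.7% for FAL-1, and the list was not tested against them. PDGFRB, the platelet-derived growth factor receptor beta of mural and stromal cells, was the only listed gene at 1.5-fold with both hairpins of a target. Among all genes, 1.44% were at 1.5-fold with both hairpins for BMI1 and 1.21% for FAL-1. PDGFRB read 7.92 in the BMI1 control, 6.69 and 7.09 with BMI1 hairpins 1 and 2, 7.74 in the FAL-1 control, and 7.15 and 7.07 with FAL-1 hairpins 1 and 2. Both controls were above all 4 hairpin arrays, a pattern seen in 8.04% of all genes. The mean changes were -1.03 ± 0.28 (SD, n = 2 hairpins) and -0.63 ± 0.06, without passing (adjusted p = 0.9998 and 0.9991, limma). THY1, a surface glycoprotein of stromal cells, read -0.55 ± 0.48 and -0.39 ± 0.05, and -0.17 and -0.77 against the other target's control. ITGA5, the fibronectin receptor subunit, stood at 0.34 ± 0.18 and 0.63 ± 0.19, and CD44, dim here, at 0.23 ± 0.10 and 0.31 ± 0.23. FN1, the fibronectin gene, was dim on all arrays, at 5.77 to 6.08.

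Of 12 other transcription factors of the programme, 4 were above and 2 below the BMI1 control with both hairpins, and 5 above and 2 below for FAL-1, beside the same 32.9% and 30.7%, and 37.2% and 27.7%, of all genes. TCF3 read -0.22 ± 0.05 (SD, n = 2 hairpins) and -0.16 ± 0.08. FOXQ1 read 0.15 ± 0.15 and 0.17 ± 0.19, TWIST2 0.13 ± 0.14 and 0.16 ± 0.19, and GSC 0.09 ± 0.03 and 0.13 ± 0.16. Against the other target's control TWIST2 read 0.25 and 0.04, and GSC 0.03 and 0.19. Of 7 receptors and SMAD mediators of TGF-beta, a main inducer of this programme, 2 were above and 3 below the BMI1 control with both hairpins. For FAL-1, 2 were above and 2 below, and the shares of all genes are those just given. The genes named here were picked for a shared sign over all 4 hairpins. SMAD4 read -0.28 ± 0.16 and -0.14 ± 0.01 and SMAD3 0.19 ± 0.10 and 0.28 ± 0.19. TGFBR3 read -0.08 ± 0.01 and -0.44 ± 0.27, and TGFBR2 0.08 ± 0.08 and 0.36 ± 0.18. Against the other target's control TGFBR2 read -0.21 and 0.65, and SMAD3 0.40 and 0.07.

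The genes whose 6 values lay closest to a member, after each gene was centred on its own mean, were found for the members with the widest range, ZEB2 (0.90) and ZEB1 (0.80). For ZEB2 they were GPC4, at a root mean square difference of 0.11 over the 6 arrays, and NAIP, at 0.11. GPC4 read 9.04 to 9.18 on the BMI1 arrays and 8.15 to 8.40 on the FAL-1 arrays, the split that ZEB2 showed. For ZEB1 they were C2orf49, at 0.03, and ELP2, at 0.08. C2orf49 read 9.14 and 9.20 with hairpin 2 of BMI1 and FAL-1 and 9.52 to 9.93 on the other arrays. With 18418 genes and 6 arrays, close profiles can be found for many genes, so these names are a description.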

How the data were processed

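The 6 arrays, 1 per infection, were all of A2780 cells. The authors deposited log2 probe set values, which involved RMA (background correction, normalization and probe summary) per the submitters' processing notes. Its software and version, and the array's build, are named by none of the sources used here. Each gene was represented by its probe set with the highest mean, from the 19460 of 33252 probe sets with 1 symbol. For BMI1, probe sets with more than 1 symbol were also allowed. All 18418 genes entered 1 fit with 4 group means (limma 3.58.1, R 4.3.3, lmFit and eBayes, two-sided), with Benjamini-Hochberg adjustment over all genes at 0.05. The lone control arrays were assumed to vary like the hairpins. Precision is limited by the number of arrays. The fit was tested on simulated data in which control and hairpin arrays had the same spread, so the assumption on the controls was not tested.

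The members and the lists were chosen with earlier results of these data known, so list counts are given beside the share of all genes and no list test was run. Named list genes are up to 4 per list whose 4 changes share a sign, by the smaller hairpin change, filled to 2 by mean size. KRT8, KRT18, KRT19, CDH3 and FN1 were named after their values were seen. Some genes of the fixed lists are not reported here, and each list is counted over its measured genes. Figures used matplotlib 3.10.9.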

Additional observations from a re-analysis of the deposited data

How the results depend on the processing

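No gene was called for either knockdown or their difference (0 of 18418, limma, adjusted p under 0.05) in any alternative run, nor at 0.1. At an unadjusted p under 0.05 there were 477, 563 and 148 genes, which became 1195, 1762 and 2071 with pooled controls, 1043, 1511 and 1469 with the other target's control, 762, 1927 and 567 without FAL-1 hairpin 1, and 183, 272 and 29 among the 9209 genes above the median level. With the hairpin number as a replicate block the calls were also 0, with 782, 1064 and 286 genes at an unadjusted p under 0.05. The numbers name different hairpins and are not known to pair arrays (deviations of the hairpins numbered 1 correlated at 0.28 across genes). Of 188 member changes under alternatives, 169 kept their sign and 19 did not. Many of them were bound to keep it. The level filters and the replicate block leave an estimate unchanged, as does the mean of probe sets for genes other than EPCAM and ZEB2. The count is thus no measure of stability. Against the other target's control, BMI1 values turned for CDH1 (-0.0059), CDH2 (-0.19) and ZEB2 (0.72), and FAL-1 values for EPCAM (0.28) and ZEB2 (-0.74). With pooled controls ZEB2 read 0.31 and -0.34, and EPCAM 0.10 for FAL-1. After quantile normalization and cyclic loess, TWIST1 read 0.025 and 0.0099 for BMI1, and SNAI1 -0.024 and -0.020 for FAL-1. Leaving out each hairpin in turn gave ranges for BMI1 of -0.60 to 0.19 (ZEB1), -0.012 to 0.57 (SNAI1) and -0.15 to 0.33 (SNAI2). For FAL-1 the ranges were -0.089 to 0.20 (CDH1), -0.093 to 0.22 (ZEB2), -0.34 to 0.39 (SNAI1) and -0.014 to 0.093 (TWIST1). The median of the epithelial genes for FAL-1 was 0.14 against the other control, 0.10 with pooled controls and -0.25 without the dim CDH1, which leaves 2 genes. The mesenchymal median was 0.16 for FAL-1 against the other control, and -0.012 to 0.10 for BMI1 with 1 hairpin left out. No epithelial member was above the median level of all genes, so that filter gave no value. At a threshold under 1.5-fold, a log2 change of 0.32 with both hairpins, 2 members passed for BMI1 and 1 for FAL-1, beside 6.59% and 6.30% of all genes. The count of members with a like hairpin difference was 7 and 8 after quantile normalization and cyclic loess, an alternative chosen after seeing the data. The share of all genes was 57.3% and 56.8%, lower than the 61.7% of the main run.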
